A study of Mus musculus with 8 samples.

Results

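The 9 genes described here make, carry and activate polyunsaturated and very long fatty acids in mouse liver. They are the desaturases Fads1 and Fads2, the elongases Elovl2, Elovl3 and Elovl5, the lipid chaperone Fabp5, the lysophospholipid carrier Mfsd2a, the acyl-CoA synthetase Acsl6 and the peroxisomal transporter Abcd2. All probe sets that the platform annotation gives to these symbols were read, 18 of the 45101 on the array. The 9 symbols were chosen by function and by their signals in these same 8 arrays, since differences between arms and between days had been seen. Their values are therefore given as descriptions, and no test on them is offered as support. The probe set with the highest mean stood for its gene, and in this way all 9 passed the filter on weak signals, as did 12112 of 18193 genes. Of the 18 probe sets 15 passed. Acsl6, whose mean log2 value was 8.28 against a threshold of 8.24, passed only through its signal in the MET KO + EGFRi arrays.

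Livers came from mice of one genotype, floxed at Met and homozygous for a tamoxifen-inducible Cre. In the MET KO + EGFRi arm, 5 daily injections of tamoxifen (100 µl at 10 mg/ml in corn oil) deleted Met throughout the body. Its diet held canertinib, an inhibitor of the kinase of the epidermal growth factor receptor EGFR, aimed at 80 mg/kg per day and begun the day before TCPOBOP. Control mice were littermates that received corn oil without tamoxifen and kept the floxed gene, and no canertinib is named for them. Both arms received TCPOBOP by gavage at 3 mg/kg, an agonist of the nuclear receptor CAR that makes mouse hepatocytes divide. Livers were taken on days 0, 1, 2 and 5, pooled within a group and hybridised to 1 Affymetrix array per arm and day, so there is no replicate. The labels do not state the age, sex or number of mice per pool, or whether TCPOBOP was given to those of day 0. Knockout, drug and diet are not separated by this design, and tamoxifen was given to 1 arm alone. The comparisons ask how these genes differed between the arms, at day 0 and on the days after the mitogen.

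The median signal over all probe sets ran from 224 to 251 in the 8 arrays. Albumin, which marks hepatocytes, had signals of 38805 to 69876 in MET KO + EGFRi and of 37254 to 77082 in control, and no Adipoq signal, which marks adipocytes, exceeded 71.9. The 3 adipocyte markers that passed the filter had more, with 737 to 1112 for Retn, 366 to 646 for Fabp4 and 281 to 538 for Lipe over the 8 arrays. Cyp2b10, a CAR target, had 356 in MET KO + EGFRi and 444 in control at day 0 and at least 32027 in the other 6 arrays. Met had 1502, 1049, 2034 and 1358 in MET KO + EGFRi on days 0, 1, 2 and 5, and 1444, 926, 1336 and 1149 in control. The deleted exon is not given, so this probe set does not check the knockout. Folds by day are ratios of the deposited signals, and log2 differences are on the log2(signal + 71) scale. In bulk samples fewer cells of a type and less RNA per cell cannot be told apart.

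As background, mammals build long polyunsaturated chains from the dietary linoleic and alpha-linolenic acids. Fads2 inserts the first new double bond, Elovl5 lengthens the chain, Fads1 inserts the next, and Elovl5 and Elovl2 extend it towards docosahexaenoic acid, whose last step is shortening in the peroxisome. Liver is a main site of this synthesis, and its desaturases are known targets of the lipogenic factor SREBP-1 and of PPARA. Elovl3 extends saturated and monounsaturated chains, and its liver expression is known to follow the clock and sex.

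Promoter sequences are shown for Fads2 and Elovl5, both lower in every MET KO + EGFRi array than in any control array, and for Mfsd2a, which was lower after day 0 in both arms. They are from RefSeq on build GRCm38.p6, run 5′ to 3′ along the gene and span 250 bases before to 50 after an annotated start. Fads2 lies at chr19:10101454-10101753 on the minus strand, Elovl5 at chr9:77917115-77917414 on the plus strand and Mfsd2a at chr4:122961139-122961438 on the minus strand. Capitals mark matches, on either strand, to the motifs named after them.
Fads2: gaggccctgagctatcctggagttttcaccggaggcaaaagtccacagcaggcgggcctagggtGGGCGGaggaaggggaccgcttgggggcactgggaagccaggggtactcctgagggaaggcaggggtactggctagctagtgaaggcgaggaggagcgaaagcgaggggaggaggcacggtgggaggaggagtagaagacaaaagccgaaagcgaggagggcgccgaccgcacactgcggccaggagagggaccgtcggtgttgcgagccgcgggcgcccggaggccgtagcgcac
Elovl5: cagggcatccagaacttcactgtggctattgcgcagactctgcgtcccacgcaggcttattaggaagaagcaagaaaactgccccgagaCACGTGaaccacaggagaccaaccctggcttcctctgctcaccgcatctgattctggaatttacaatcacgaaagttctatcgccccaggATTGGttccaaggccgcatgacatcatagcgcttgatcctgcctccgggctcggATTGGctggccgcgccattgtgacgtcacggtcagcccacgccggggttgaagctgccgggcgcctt
Mfsd2a: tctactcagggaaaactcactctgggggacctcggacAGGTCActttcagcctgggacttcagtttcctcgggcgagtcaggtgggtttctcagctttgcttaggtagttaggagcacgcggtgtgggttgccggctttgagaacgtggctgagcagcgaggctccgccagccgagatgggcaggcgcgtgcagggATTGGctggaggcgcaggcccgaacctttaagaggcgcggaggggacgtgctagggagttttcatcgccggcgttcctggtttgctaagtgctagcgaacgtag
The motifs were searched on both strands. The sterol response element was spelled TCACNCCAC, and the box bound by the factor NF-Y was spelled CCAAT. The E-box was spelled CACGTG, which is its own complement. The GC box known to bind SP1 was spelled GGGCGG. The core site recognised by many nuclear receptors was spelled AGGTCA. In the Fads2 window the capitals are 1 GC box, in Elovl5 1 E-box and 2 NF-Y boxes, and in Mfsd2a 1 nuclear receptor site and 1 NF-Y box. No match overlapped another in these 3 windows. Of 32851 promoter windows of this length, 1.24 percent hold the sterol response element, 37.4 percent the NF-Y box, 7.15 percent the E-box, 35.7 percent the GC box and 16.3 percent the nuclear receptor site. The sterol response element was not found in any of the 8 windows listed for 5 of the 9 genes, which says only that these letters are not in them. Elovl2 and Acsl6 have windows that are not printed, and Fads1, Elovl3, Fabp5 and Abcd2 were not matched.

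**Figure D1:**
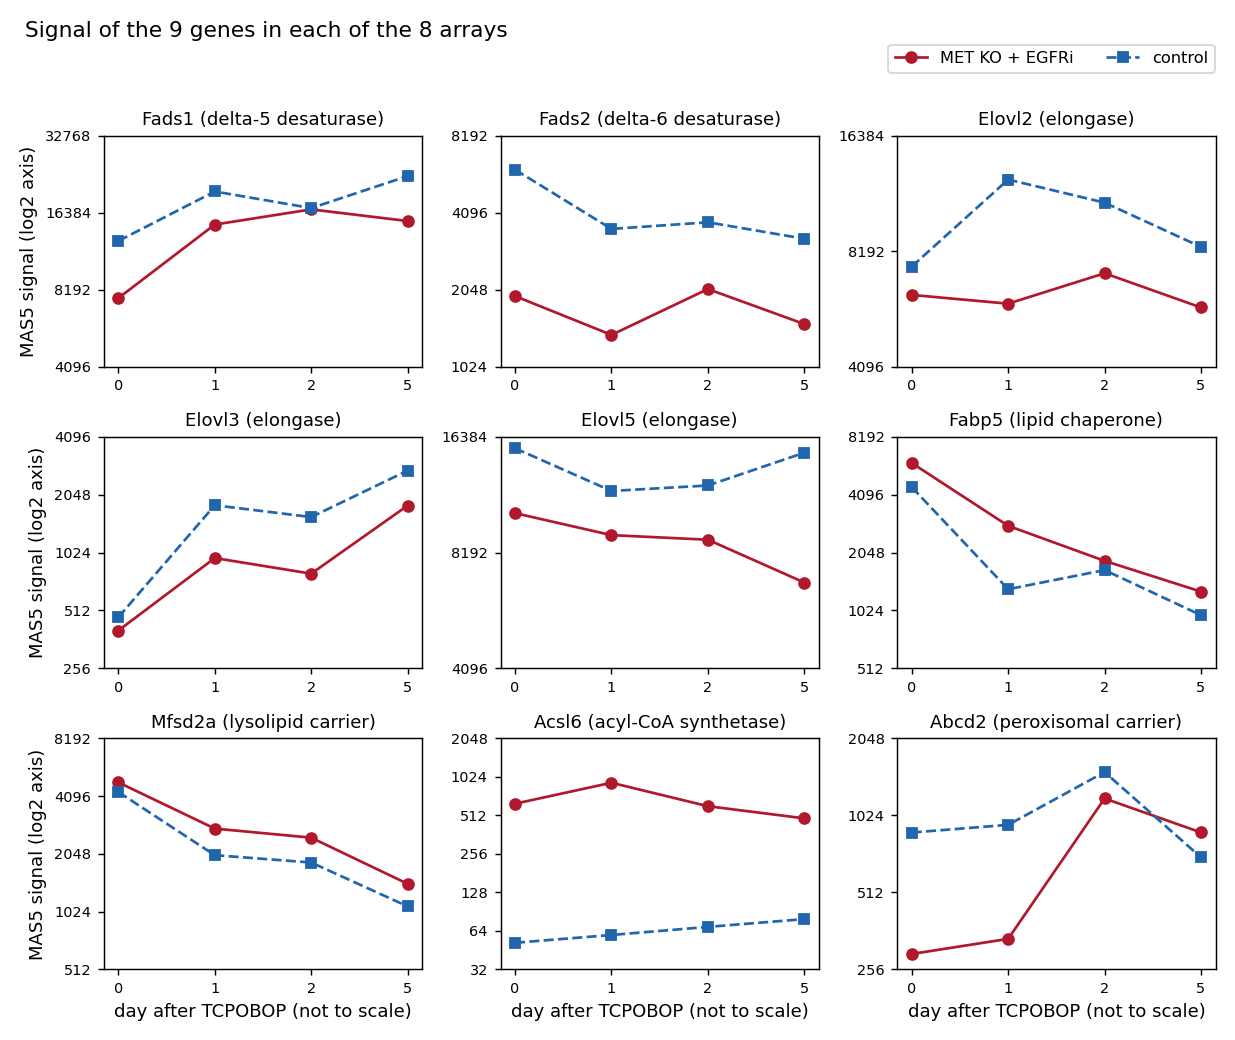
MAS5 signal (log2 axis) of each of the 9 genes on days 0, 1, 2 and 5, with 1 array per point, for MET KO + EGFRi (circles, solid lines) and control (squares, dashed lines). Fads2, Elovl2 and Elovl5 lie lower in every MET KO + EGFRi array than in any control array, Acsl6 lies higher in every one, and Fabp5 and Mfsd2a are highest at day 0 in both arms.

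Fads2, the delta-6 desaturase that opens the pathway, had the lowest mean of the 9 genes in MET KO + EGFRi livers relative to control. Its signal was 1933, 1363, 2060 and 1503 in MET KO + EGFRi on days 0, 1, 2 and 5, against 6031, 3538, 3756 and 3240 in control. The arms did not overlap, and control was 3.12-fold above MET KO + EGFRi at day 0 and 1.82-fold at day 2. The mean log2 difference over the 4 days was -1.21 with a standard error of 0.15. A probe set of the same transcript, 1419031_at, had 2541, 1304, 1957 and 1280 in MET KO + EGFRi and 6541, 3849, 3807 and 2533 in control, a mean difference of -1.18. There the lowest control array, of day 5, lay just under the highest MET KO + EGFRi array. The weak probe set 1443838_x_at had 16.2 to 31.6 in MET KO + EGFRi and 91.2 to 281 in control.

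Fads1, the delta-5 desaturase, differed less between the arms and had another course over time. Signals were 7594, 14721, 16874 and 15196 in MET KO + EGFRi, against 12703, 19823, 17070 and 22771 in control. MET KO + EGFRi was lower on all 4 days, by a mean log2 difference of -0.44 ± 0.15 (SE), but the day 2 arrays were nearly equal and the arms overlapped. Both arms had their lowest Fads1 signal at day 0, and day 5 was 2.00-fold above it in MET KO + EGFRi and 1.79-fold in control. The weaker probe set 1440444_at did not follow this course, with 818, 1014, 934 and 1218 in MET KO + EGFRi and 1376, 1206, 1017 and 1136 in control. Averaged over both probe sets, the log2 change after TCPOBOP was 0.43 in place of 0.83.

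RefSeq places Fads3, Fads2 and Fads1 side by side among the protein-coding genes of 1 cluster, with Rab3il1 before them and Fen1 and Tmem258 after. Rab3il1, a regulator of vesicle transport, was under the filter and not tested. It had 127, 166, 189 and 205 in MET KO + EGFRi and 325, 397, 268 and 180 in control, so it was lower in MET KO + EGFRi on days 0, 1 and 2 and higher on day 5. Fads3, a desaturase that acts outside this pathway, had a log2 difference between arms of -0.11 ± 0.20 (limma adjusted p = 0.874). Fen1, a nuclease of DNA replication, had 0.11 ± 0.16 (adjusted p = 0.841), and Tmem258, a membrane protein, had -0.19 ± 0.13 (adjusted p = 0.62). These neighbours were looked up after the values of Fads1 and Fads2 were seen.

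Elovl5, which lengthens the first desaturation products, was lower in all MET KO + EGFRi arrays, with 10376, 9093, 8847 and 6842 against 15311, 11852, 12248 and 14911 in control. The gap was widest at day 5, where control was 2.18-fold higher. The mean log2 difference was -0.63 ± 0.16 (SE). Its other probe set, 1437211_x_at, had 8900, 7554, 6836 and 4951 in MET KO + EGFRi and 14170, 9070, 9183 and 9150 in control, again without overlap.

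Elovl2, which extends chains of the docosahexaenoic acid branch, was steady in MET KO + EGFRi, with 6301, 5979, 7176 and 5843. In control it had 7469, 12588, 10961 and 8404. The control signal was thus 1.69-fold above day 0 at day 1 and 1.13-fold at day 5, while day 1 in MET KO + EGFRi stood at 0.949 times its day 0. The arms did not overlap, and the mean log2 difference was -0.61 ± 0.16 (SE), largest at day 1 (-1.07).

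Elovl3 had 402, 959, 795 and 1799 in MET KO + EGFRi and 471, 1806, 1567 and 2738 in control. It was lower in MET KO + EGFRi on each day, although the arms overlapped because the signal varied more with time than with arm. The mean difference between arms was -0.64 ± 0.16 (SE) on the log2 scale. In both arms the order of days, low to high, was 0, 2, 1 and 5, and day 5 was 4.48-fold above day 0 in MET KO + EGFRi and 5.81-fold in control.

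**Figure D2:**
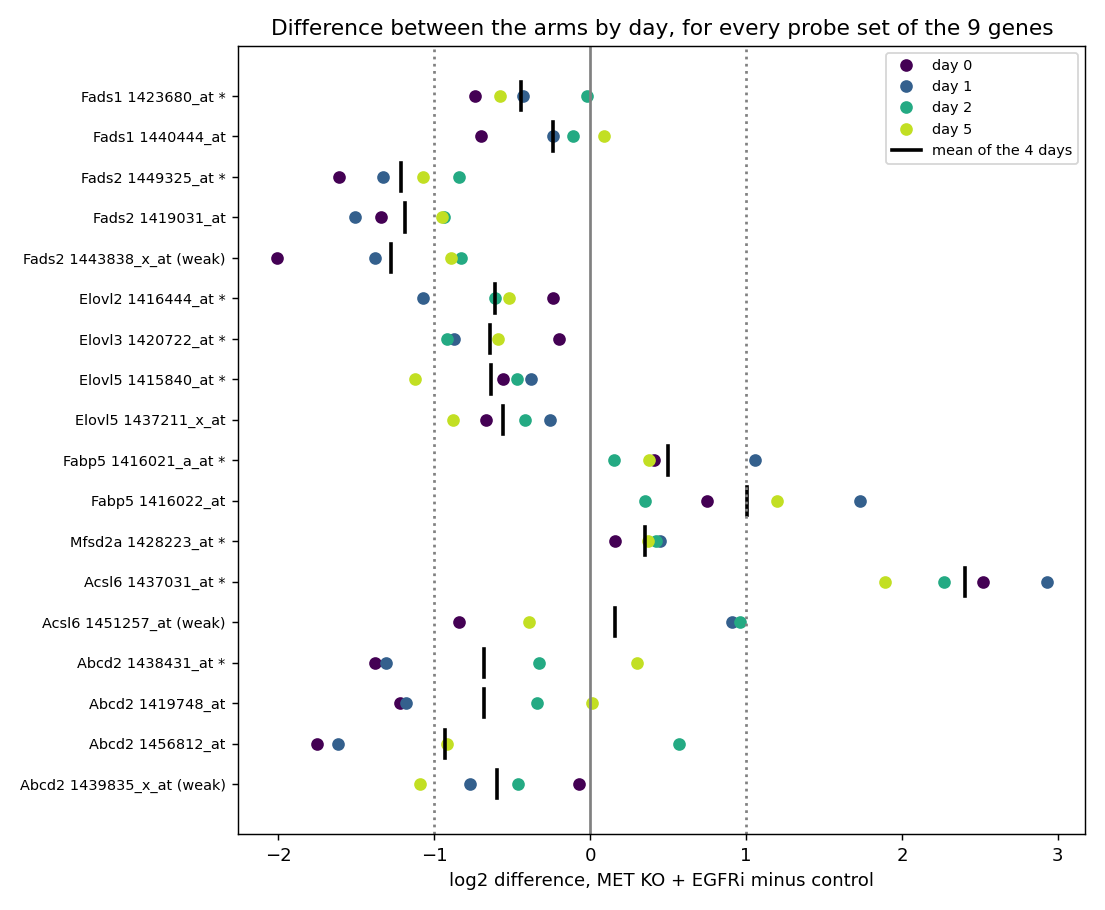
Log2 difference, MET KO + EGFRi minus control, for all 18 probe sets on each of the 4 days (points) with the mean of the days (bars). Stars mark the probe sets from which genes were read, "weak" those under the filter, and dotted lines a 2-fold difference. The 3 Fads2 probe sets lie between -2.01 and -0.83, whereas only 1 of the 2 Acsl6 probe sets is far above 0.

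Acsl6, which joins coenzyme A to polyunsaturated fatty acids and is best known from brain, had the widest gap. Its probe set 1437031_at had 632, 921, 604 and 485 in MET KO + EGFRi, against 51.7, 59.5, 68.8 and 79.2 in control. Every MET KO + EGFRi array lay at least 6.13-fold above the control array of its day, and the gap at day 1 was 15.5-fold. The mean log2 difference was 2.40 ± 0.23 (SE). Since the control signals lie near the added constant of 71, the log2 difference was 3.33 with no constant added and 1.55 with the median signal added. The other probe set, 1451257_at, does not show the gap. It had 63.8, 206, 121 and 148 in MET KO + EGFRi and 170, 76.8, 27.3 and 216 in control, all weak, and the arms crossed from day to day. The value of Acsl6 thus rests on 1 of 2 probe sets.

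Fabp5, a cytosolic chaperone of fatty acids, was higher in MET KO + EGFRi on all 4 days. Signals were 5998, 2822, 1853 and 1281 in MET KO + EGFRi, and 4491, 1319, 1659 and 966 in control. The mean log2 difference was 0.50 ± 0.17 (SE), with the widest gap of 2.14-fold at day 1, and the arms overlapped. Probe set 1416022_at, at 1090, 747, 386 and 218 in MET KO + EGFRi and 618, 176, 287 and 54.7 in control, gave 1.01.

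Fabp5 is also known from macrophages. All 13 Kupffer cell and macrophage markers had a positive mean difference, as had 6105 of all 12112 genes. The summed signal of these 13 markers was 32370 to 58904 in MET KO + EGFRi and 17918 to 39122 in control. That sum was highest at day 5 in both arms, when Fabp5 was lowest. Of 9 measured neutrophil and monocyte markers 8 were higher, with sums over the 12 that have a probe set of 9725 to 10577 in MET KO + EGFRi and 4814 to 5320 in control. limma called 3 of them higher, Prtn3 (3.15 ± 0.16, adjusted p = 0.000311), S100a8 (1.95 ± 0.15, 0.00224) and S100a9 (1.69 ± 0.15, 0.00506). The other measured neutrophil and monocyte markers had mean log2 differences from -0.05 (Ccr2) to only 0.42 (Ngp). Among the Kupffer cell and macrophage markers Cd5l was called higher (0.95 ± 0.15, adjusted p = 0.0468). Over all genes 0.413 percent were called higher. No marker is listed at 0. Stellate cell and fibroblast markers summed to 13343 to 16275 in MET KO + EGFRi and 10422 to 11556 in control, without overlap, although 5 of 8 measured had a lower mean. Dcn among them was called higher (1.00 ± 0.14, adjusted p = 0.0298). The part of these cells in the Fabp5 and Acsl6 values was not tested. Endothelial markers summed to 9519 to 13824 in MET KO + EGFRi and 8749 to 12507 in control. Erythroid markers summed to 3022 to 3390 in MET KO + EGFRi and 2595 to 4308 in control, and adipocyte markers to 1877 to 2270 in MET KO + EGFRi and 1792 to 2222 in control, so these 3 ranges overlapped.

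Mfsd2a, a sodium-dependent carrier of lysophosphatidylcholine and with it docosahexaenoic acid, is known in liver as a gene induced by fasting. It had 4830, 2774, 2488 and 1430 in MET KO + EGFRi, against 4305, 2017, 1847 and 1091 in control. MET KO + EGFRi was above control on every day, by 1.12- to 1.38-fold, and the mean log2 difference was 0.35 ± 0.12 (SE). The arms overlapped widely because both ran down with time, to 0.296 times day 0 in MET KO + EGFRi and 0.253 times in control at day 5.

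Abcd2, which carries very long acyl-CoA into the peroxisome, differed by over 2-fold between the arms on days 0 and 1 alone. On probe set 1438431_at it had 294, 337, 1192 and 878 in MET KO + EGFRi and 878, 941, 1512 and 701 in control. Control was 2.98-fold and 2.79-fold above MET KO + EGFRi on days 0 and 1, and 1.27-fold at day 2, while at day 5 MET KO + EGFRi was 1.25-fold above control. MET KO + EGFRi at day 2 stood 4.05-fold above its day 0, against 1.72-fold in control. A second probe set, 1419748_at, gave the same order, with 231, 262, 631 and 528 in MET KO + EGFRi and 632, 683, 818 and 524 in control. The weaker 1456812_at had 46.7, 66, 614 and 280 in MET KO + EGFRi and 325, 351, 391 and 595 in control, and so differed from these on days 2 and 5. The weak probe set 1439835_x_at had 59.7 to 223 in MET KO + EGFRi and 163 to 239 in control. The mean difference over the 4 days, -0.68 ± 0.28 (SE), averages these unlike days.

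limma, fitted over all 12112 genes with arm and day as terms, put 2 of the 9 genes past an adjusted p of 0.05 between arms, as against 0.578 percent of all genes. Fads2 was lower, where 0.165 percent of all genes were called lower, and Acsl6 was higher, where 0.413 percent were. Nothing is read from these counts, since the genes were chosen with the comparison known. The 4 arrays of MET KO + EGFRi all lay below those of control for Fads2, Elovl2 and Elovl5 (2.75 percent of all genes) and above them for Acsl6 (3.5 percent). MET KO + EGFRi was lower on each day for 5 genes (10.3 percent of all genes) and higher on each for 3 (9.92 percent). The median of the 9 differences was -0.61, beside 0.00 over all genes. Without either day 0, day 1 or day 5 array the Fads2 difference lay between -1.26 and -1.08 and was not called. Acsl6, at 2.23, was not called when the day 1 array of MET KO + EGFRi was left out.

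By single days, with 1 array per arm and no test, Acsl6 was at least 2-fold higher on days 0, 1, 2 and 5, when 2.64, 2.89, 2.88 and 2.25 percent of all genes were. Fabp5 joined it at day 1. At least 2-fold lower in MET KO + EGFRi were Fads2 and Abcd2 at day 0 (2.18 percent of all genes), these and Elovl2 at day 1 (2.63 percent), none at day 2 (2.03 percent), and Fads2 and Elovl5 at day 5 (2.16 percent).

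**Figure D3:**
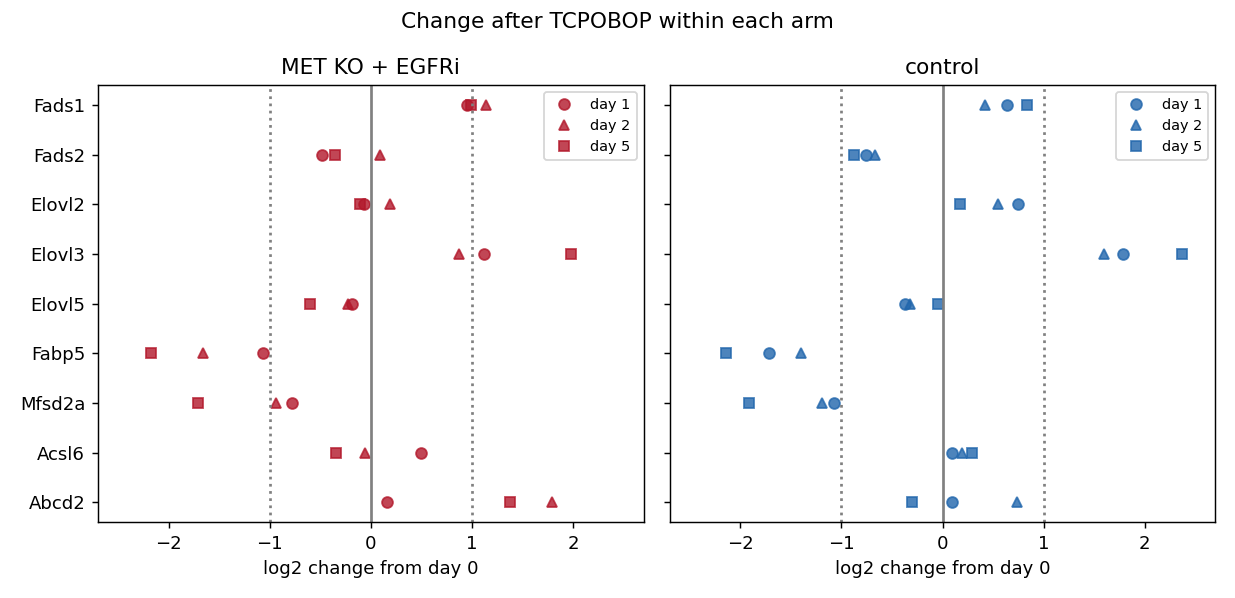
Log2 change from day 0 of the 9 genes on days 1, 2 and 5 (circles, triangles, squares) in MET KO + EGFRi (left) and control (right), with 1 array per point and dotted lines at a 2-fold change. Elovl3 lies above 0 and Fabp5 and Mfsd2a below 0 on all 3 days in both arms, while Abcd2 and, at day 2, Fads1 exceed 2-fold in MET KO + EGFRi alone.

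After TCPOBOP the 9 genes did not share 1 course. Averaged over both arms, the mean of days 1, 2 and 5 minus day 0 was 1.62 ± 0.18 (SE, log2) for Elovl3, -1.69 ± 0.19 for Fabp5 and -1.27 ± 0.14 for Mfsd2a. These 3 passed an adjusted p of 0.05 in limma, 1 higher and 2 lower, where 0.487 percent of all genes were called, 0.421 percent higher and 0.0661 percent lower. For the other genes the change was 0.83 ± 0.18 for Fads1, 0.64 ± 0.32 for Abcd2, 0.24 ± 0.18 for Elovl2, 0.11 ± 0.26 for Acsl6, -0.29 ± 0.18 for Elovl5 and -0.51 ± 0.18 for Fads2. Fads1 and Elovl3 stood above day 0 on all 3 days in both arms (9.62 percent of all genes), and Elovl5, Fabp5 and Mfsd2a below it (8.83 percent). No member stood on opposite sides of day 0 in the 2 arms on all 3 days (9.85 percent of all genes).

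On the probe sets read, the desaturases ran apart in control, where Fads1 was 1.34- to 1.79-fold above day 0 and Fads2 0.537 to 0.623 times its day 0. In MET KO + EGFRi, Fads1 was 1.94- to 2.22-fold above day 0 and Fads2 0.705 to 1.07 times. The weaker Fads1 probe set stood below day 0 in control on all 3 days (-0.18, -0.41 and -0.26 on the log2 scale), on the same side as Fads2, and above it in MET KO + EGFRi (0.29, 0.18 and 0.54). All changes of an arm share its day 0 array, and each of the 3 calls is lost without either day 0 array. Without these arrays Elovl3 had 1.33 and 1.92, Fabp5 -1.75 and -1.63, and Mfsd2a -1.39 and -1.14. The calls of Elovl3 and Mfsd2a were also lost without either day 1 array or the day 5 array of MET KO + EGFRi (1.57 to 1.67 and -1.29 to -1.24), and that of Fabp5 without that day 5 array (-1.66).

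At least 2-fold above day 0 in MET KO + EGFRi were Elovl3 at day 1, Fads1 and Abcd2 at day 2, and Elovl3 and Abcd2 at day 5 (1.6, 2.13 and 2.82 percent of all genes). At least 2-fold below it were Fabp5 on the 3 days and, at day 5, Mfsd2a (1.76, 2.08 and 2.7 percent). In control Elovl3 was at least 2-fold above day 0 on each day (2.58, 2.58 and 2.82 percent), and Fabp5 and Mfsd2a at least 2-fold below it on each (2.27, 2.73 and 2.57 percent).

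The difference in the TCPOBOP response between arms, tested as an interaction in limma, was called for 0 of 12112 genes (0.0 percent), with 543 at an unadjusted p under 0.05, none of them among the 9. Its largest value among the 9 was 0.93 ± 0.59 (SE, log2) for Abcd2. Elovl3 had -0.59 ± 0.31, Fads2 0.52 ± 0.32, Elovl2 -0.49 ± 0.35, Fads1 0.40 ± 0.36, Mfsd2a 0.25 ± 0.29, Acsl6 -0.16 ± 0.56, Fabp5 0.12 ± 0.41 and Elovl5 -0.10 ± 0.39. With 2 residual degrees of freedom these errors are wide.

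Over the 8 arrays, which share arms and days, Pearson's r of log2 values was 0.97 between Fabp5 and Mfsd2a and -0.97 between Elovl3 and Mfsd2a. It was 0.87 between Fads2 and Elovl5, -0.92 between Fads2 and Acsl6, and 0.22 between Fads1 and Fads2. Abcd2 followed none of the others closely, with r between -0.57 and 0.59. With so few arrays in 2 arms, such values describe the common course only.

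The genes most alike in pattern were taken by the same measure from all others that passed the filter. For Fads2 they were Cpne7 (r = 0.971), Celsr1 (0.967) and Poldip2 (0.962). Elovl5 was nearest to Mgll (0.952), Defb45 (0.938) and Psmg3 (0.934), and Elovl2 to Lactb2 (0.959), Fam136a (0.958) and Ncan (0.958). For Fads1 the nearest were Cbr1 (0.988), Ces1d (0.984) and Ano6 (0.979). Elovl3 followed Clock (0.974), Aldh1a7 (0.971) and Tmem51 (0.970). Ccdc191 was nearest to both Fabp5 (0.987) and Mfsd2a (0.973), after which came Tbc1d8 (0.956) for Fabp5 and Trp53i11 (0.969) for Mfsd2a, besides each other. Acsl6 was nearest to Ggct (0.991), Mmd2 (0.989) and Eif4ebp1 (0.983), and Abcd2 to Fam120a (0.995), Frrs1 (0.989) and Abcb1a (0.966).

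Clock, a core gene of the circadian oscillator, had 90.2, 222, 193 and 267 in MET KO + EGFRi and 102, 324, 351 and 507 in control. Arntl, its partner, read after its values were seen, had 910 to 1053 in MET KO + EGFRi and 889 to 1097 in control. Of 16 measured clock genes limma called 0 between arms or after TCPOBOP, with 4 and 2 at an unadjusted p under 0.05 (12.1 and 10.1 percent of all genes). Their median absolute log2 difference between arms was 0.49, 0.52, 0.26 and 0.71 on days 0, 1, 2 and 5, beside 0.25, 0.25, 0.27 and 0.25 over all genes. The widest mean differences between arms were 1.33 ± 0.26 for Ciart (adjusted p = 0.103), 1.01 ± 0.46 for Nfil3 (0.433), -0.80 ± 0.24 for Bhlhe40 (0.244) and 0.71 ± 0.21 for Per1 (0.244). Male-biased liver genes had a median of -0.06 between arms and -0.09 after TCPOBOP, over 8 genes. Among them Mup3 had -1.92 ± 0.36 between arms (adjusted p = 0.0819) and Cyp7b1 0.71 ± 0.40 (0.543). The 8 measured female-biased genes had a median of -0.16 between arms, where Hao2 and Prom1 were called lower (-1.78 ± 0.24, adjusted p = 0.0229, and -1.72 ± 0.17, adjusted p = 0.00573). Cyp17a1 was higher on all 4 days and not called (0.80 ± 0.14, adjusted p = 0.0729). After TCPOBOP the median of the female-biased genes was 0.81, beside -0.02 over all genes, with 6 of 8 higher. At an unadjusted p under 0.05, 5 were higher and 1 lower, against 6.21 and 3.87 percent of all genes. Of the 8 male-biased genes 1 was higher and 3 were lower at that threshold. Prom1 was called higher after TCPOBOP (2.32 ± 0.20, adjusted p = 0.00457), where 0.421 percent of all genes were. The part of harvest time and of the sex of the pooled mice in the Elovl3 values was not tested.

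Mfsd2a was set beside genes known to be induced by fasting. Of 10 measured, 9 had a lower mean after TCPOBOP (median -0.44, beside -0.02 over all genes), with 0 called by limma and 4 lower at an unadjusted p under 0.05 (3.87 percent of all genes). Between arms 7 were higher and 3 lower (median 0.19), with 0 called and 4 higher at an unadjusted p under 0.05 (6.12 percent of all genes). Lpin1, a phosphatidate phosphatase, had 6660, 4536, 3877 and 3831 in MET KO + EGFRi and 4916, 1630, 1477 and 1097 in control (log2 difference between arms 1.24, adjusted p = 0.057). Igfbp1 had 14038, 2327, 2367 and 836 in MET KO + EGFRi and 839, 345, 467 and 726 in control, so the arms were close at day 5 (2.21 ± 0.49, adjusted p = 0.139). Pck1 and Tat, of gluconeogenesis and tyrosine breakdown, had 0.60 ± 0.17 (adjusted p = 0.225) and 0.50 ± 0.18 (0.318), and G6pc, named after its values were seen, had -0.41 ± 0.26 (0.588). Food intake is not given in the labels, and its part in the Mfsd2a values was not tested.

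**Figure D4:**
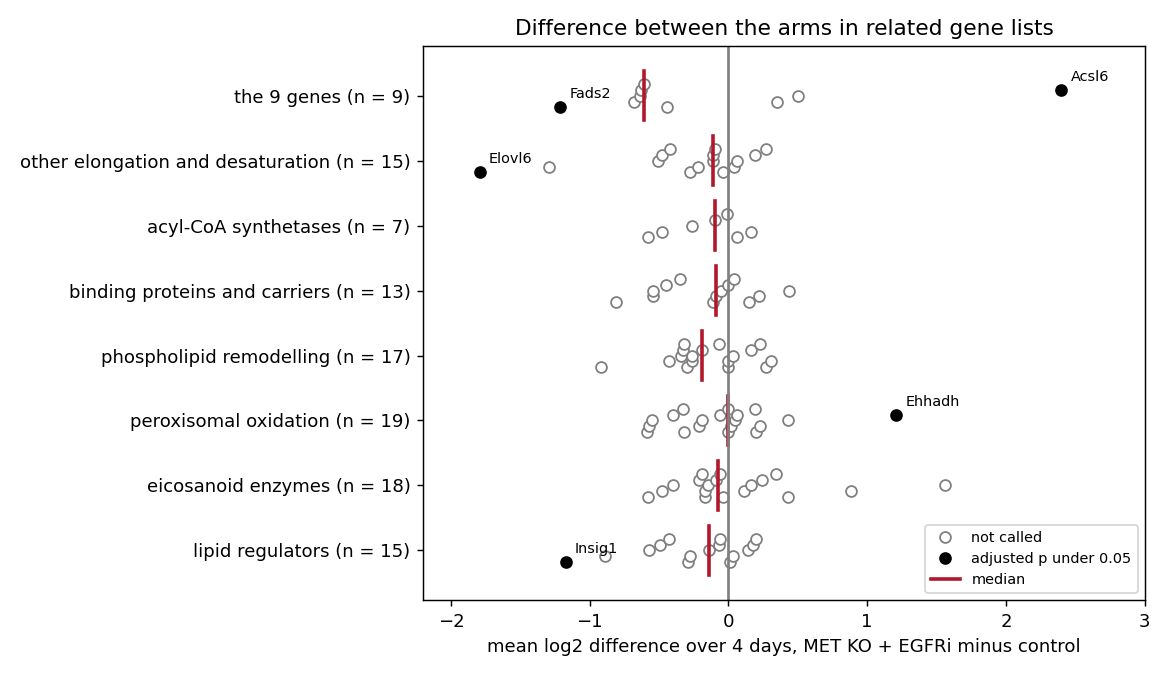
Mean log2 difference over 4 days, MET KO + EGFRi minus control, of each measured gene in the 9-gene set and in 7 related lists, with red bars at medians and filled points for an adjusted p under 0.05. Medians of the related lists run from -0.19 to 0.00, and Elovl6, Ehhadh and Insig1 are the called genes in them.

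In the related lists limma called Elovl6, Ehhadh and Insig1 between arms, where 0.578 percent of all genes were called. Over all genes 6.12 percent were higher and 5.99 percent lower between arms at an unadjusted p under 0.05. Of 15 measured genes among the other elongases, the shared enzymes of the elongation cycle and other desaturases, 11 were lower and 4 higher in MET KO + EGFRi (median -0.11). At an unadjusted p under 0.05, 5 were lower and 0 higher. Only Elovl6, which extends palmitate, was called, with 1698, 1821, 2401 and 2330 in MET KO + EGFRi and 9663, 8728, 6028 and 5306 in control (log2 difference -1.79 ± 0.23, adjusted p = 0.019). Scd1, the delta-9 desaturase, had -1.29 ± 0.23 (adjusted p = 0.0729), Elovl1 -0.51 ± 0.17 (0.308) and Hsd17b12, the ketoreductase of the elongation cycle, -0.48 ± 0.15 (0.269). Hacd1, a dehydratase of the same cycle, had -0.42 ± 0.13 (0.273).

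Other acyl-CoA synthetases and fatty acid transport proteins had 5 of 7 lower, with a median of -0.10. limma called 0 of them, and 2 were lower at an unadjusted p under 0.05. Acsl3 had 679, 754, 749 and 710 in MET KO + EGFRi and 1093, 1105, 1457 and 865 in control, without overlap (-0.58 ± 0.14, adjusted p = 0.179). Acsl5 also did not overlap, with 5441 to 6951 in MET KO + EGFRi and 7514 to 8970 in control. The widest of the other 5 was -0.26 ± 0.23 for Acsl4 (adjusted p = 0.72), so no measured relative of Acsl6 was called higher. Among 13 binding proteins and carriers, 9 were lower (median -0.09), with 0 called and 4 lower at an unadjusted p under 0.05. Fabp1, the main fatty acid binding protein of hepatocytes, had 35418, 21857, 42917 and 32055 in MET KO + EGFRi and 41930, 50572, 44382 and 51161 in control (-0.54 ± 0.20, adjusted p = 0.349). Fabp2 had -0.81 ± 0.16 (adjusted p = 0.0976) and Dbi, the acyl-CoA binding protein, -0.54 ± 0.22 (0.376). Acbd5, a peroxisomal acyl-CoA binding protein, had -0.45 ± 0.22 (adjusted p = 0.472). These mean differences had the opposite sign to that of Fabp5, whose sign was shared by the 4 higher among the 13.

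Enzymes that place polyunsaturated chains in phospholipids or release them had 10 of 17 lower (median -0.19), with 0 called and 3 lower at an unadjusted p under 0.05. Pemt, which makes phosphatidylcholine by methylation, had 4152, 3033, 2801 and 5089 in MET KO + EGFRi and 7097, 7045, 6519 and 7429 in control (-0.92 ± 0.15, adjusted p = 0.0552), without overlap. Agpat4, an acyltransferase, had -0.43 ± 0.16 (adjusted p = 0.341), Lpcat1 -0.34 ± 0.19 (0.543) and Agpat5 -0.33 ± 0.22 (0.621).

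In the peroxisome 10 of 19 measured genes were higher and 9 lower (median 0.00). Of these, 1 was higher and 3 were lower at an unadjusted p under 0.05. Ehhadh, the bifunctional enzyme of beta-oxidation, was called, with 10706, 11964, 17221 and 7323 in MET KO + EGFRi and 6366, 4238, 6016 and 3316 in control (1.21 ± 0.16, adjusted p = 0.0213). Abcd3, a relative of Abcd2, had 8400, 11203, 11569 and 11456 in MET KO + EGFRi and 12762, 16880, 18411 and 15513 in control (-0.57 ± 0.12, adjusted p = 0.128). Its arms did not overlap, whereas those of Abcd2 did. Acot3, an acyl-CoA thioesterase, had -0.59 ± 0.36 (adjusted p = 0.57), the thiolase Acaa1b -0.55 ± 0.18 (0.292) and Hacl1, which serves alpha-oxidation, 0.43 ± 0.20 (0.448).

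Enzymes that oxidise polyunsaturated chains to signalling lipids had 11 of 18 lower (median -0.08), with 0 called between arms and 2 higher and 2 lower at an unadjusted p under 0.05. Prostaglandin D synthase Ptgds had 904, 1645, 2561 and 2242 in MET KO + EGFRi and 603, 476, 362 and 781 in control (1.56 ± 0.29, adjusted p = 0.0806). Alox5ap, which serves leukotriene synthesis in leukocytes, had 662 to 1045 in MET KO + EGFRi and 346 to 485 in control (0.88 ± 0.18, adjusted p = 0.113). Cyp4f14, a fatty acid hydroxylase, had -0.58 ± 0.31 (adjusted p = 0.517). Ephx1, an epoxide hydrolase, rose after TCPOBOP (1.24 on the log2 scale, adjusted p = 0.0192).

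Of 15 measured regulators 10 were lower (median -0.14). At an unadjusted p under 0.05, 0 were higher and 4 lower, against 6.12 and 5.99 percent of all genes. Insig1, an SREBP target that retains SREBP, was called lower. It had 1448, 2637, 2118 and 2785 in MET KO + EGFRi and 3607, 6130, 5285 and 5350 in control (-1.17 ± 0.13, adjusted p = 0.00989). Scap, the escort of SREBP, had -0.49 ± 0.17 (adjusted p = 0.318) and Mlxipl, the carbohydrate-responsive factor, -0.43 ± 0.16 (0.347). Nr1i3, which encodes CAR, the receptor that TCPOBOP activates, had 1409, 863, 790 and 1709 in MET KO + EGFRi and 3141, 2065, 1784 and 1887 in control. Its arms did not overlap, and the difference was not called (-0.89 ± 0.19, adjusted p = 0.131). Nr0b2, a repressor in bile acid and lipid metabolism, had -0.57 ± 0.28 (adjusted p = 0.48). Srebf1, read after its values were seen, had 3304, 4134, 6823 and 4659 in MET KO + EGFRi and 7898, 6461, 4070 and 4547 in control. It was lower in MET KO + EGFRi on days 0 and 1 and higher on days 2 and 5, and Fads2 was lower on all 4. The part of SREBP-1 in the Fads2 values was not tested.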

How the data were processed

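Gene expression was measured in pooled mouse livers on 8 Affymetrix arrays. The deposited intensity values, 1 linear signal per probe set, were made with MAS5 per the submitters' processing notes; its version is not given in the sources used here. Each array's mean, trimmed by 2 percent at each end, is 500.

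The 64 control probe sets were dropped, and 34945 others had 1 gene in the platform table, 932 several and 9160 were not listed. The constant 71, the lower quartile of the signals, was added before taking log2, which understates folds of weak genes. Of several probe sets the one with the highest mean was used, and genes whose mean log2 value was under 8.24, the median over probe sets, were dropped.

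limma 3.58.1 (R 4.3.3) was fitted over the 12112 genes kept with arm and day as terms and a variance trend, and once with an interaction of arm and TCPOBOP. Calls had a Benjamini-Hochberg adjusted p under 0.05. With day and arm as terms, the p-values rest on how far the difference between arms varied from day to day. They do not measure the spread between animals. Single days were counted at 2-fold, on the log2(signal + 71) scale, with no test. Only the arm term of the fit was tried on simulated arrays, which held shifts between arms and no day effect. The change after TCPOBOP and the interaction were not tried in this way.

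The 9 genes, the lists and the motifs were chosen with earlier results of these data known. Named genes were the 9, called list genes, up to 4 further genes per list with the largest difference between arms, those said to be named after their values were seen, and the 3 genes most alike to each of the 9. Alternatives were 2 pseudocounts, the mean of probe sets, 2 filters, quantile normalization, no variance trend and leaving out each array. Precision is limited by the number of arrays.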

Additional observations from a re-analysis of the deposited data

How the results depend on the processing

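Arms were matched by day, which is a term of the fit, and the arrays carry no replicate numbers for a further block. The count of genes called between arms, 70, fell to 28 without a filter, and was 20 to 57 when 1 array was left out. The count of the 9 genes called, 2, was 1 with the mean of probe sets and 1 with the filter at the upper quartile, both of which leave Acsl6 out, and 0 to 2 when 1 array was left out. After TCPOBOP the count over all genes, 59, was 35 with the mean of probe sets, 26 without a filter and 34 without a variance trend, and 4 to 49 when 1 array was left out. Of the 9 genes, 3 were called then, and 0 to 3 when 1 array was left out. The interaction called 0 genes under every alternative, and could not be fitted without a day 0 array. Single-day differences of at least 2-fold, 12 of 36 values, were 6 of 32 with the mean of probe sets. Changes from day 0 of at least 2-fold, 18 of 54, ranged from 16 to 19. Of 133 values of the 9 genes between arms under alternatives, 0 had another sign, as against 3 of 133 after TCPOBOP and 8 of 115 for the interaction. Signals near or below the pseudocount, as for Acsl6 in control, limit what can be read from their folds.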
